A study of Mus musculus with 8 samples.

Results

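Cytosine methylation in mammals lies mostly at CG, a palindrome that puts a cytosine on each DNA strand, and the pair of facing cytosines is called a CG dyad. After replication the new strand is bare, and Uhrf1 and the maintenance methyltransferase Dnmt1 copy the mark from the old strand, so that in a tissue such as liver both strands of a dyad usually carry similar levels. A dyad in which 1 strand is methylated and the other is not is called hemimethylated.

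CG dyads were taken from reduced representation bisulfite sequencing (RRBS), which cuts DNA with MspI at CCGG and reads the ends of short fragments after bisulfite treatment. The rule asked for adjacent CG positions on the 19 autosomes with at least 20 reads on each position in at least 4 mice, and it found 13089 pairs. Of these, 25 were opposite strands of neighbouring CGs rather than a dyad and were set aside. The remaining 13064 CG dyads are described here, of 144481 dyads with 20 reads on both strands in at least 1 mouse. The difference of a dyad is the level of the plus strand minus that of the minus strand, in percentage points, and its size without the sign is called the absolute difference.

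Livers came from 8 mice, 1 female and 1 male each of B6 (C57BL/6J), DBA (DBA/2J) and their reciprocal F1, BXD (C57BL/6JxDBA/2J, B6 mother) and DXB (DBA/2JxC57BL/6J, DBA mother). All mice were 16 weeks old and fasted for 16 h, none carried an engineered allele or was given a drug, and each library is 1 mouse, so strain and single mouse are replicated only through the other sex. Whole liver holds several cell types, and methylation reads alone carry no expression markers with which the tissue label could be checked. The libraries differed in how far reads reached from an MspI cut: 100 bases in the BXD male and both female parents, 76 bases in both male parents, and 50 bases in the BXD female, DXB female and DXB male. In the B6 male 83.9% of the calls that carry a strain SNP were B6, against 99.7% in the B6 female, so this library goes against its label in part, and values without it are given where they differ most.

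MspI sites made up 12625 dyads and other sequence 439. At an MspI site the plus-strand cytosine is the first base of reads that enter the fragment on the right, and the minus-strand cytosine is the first base of reads that enter the fragment on the left. The 2 strands are therefore counted on different DNA fragments. At other dyads both strands are read from opposite ends of the same fragment. The fragments beside MspI dyads had a median length of 200 bases on the left and 202 bases on the right, and those that hold the other dyads were 105 to 150 bases long.

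The reference sequences of dyads on which the results turn are given first, each 62 bases of the plus strand of NCBIM37 (mm9). Capitals mark the MspI site with the base on either side, or the CG alone where there is no MspI site. The base that follows CGG at the start of a read is called its flanking base. For the plus-strand read it is the capital on the right, and for the minus-strand read it is the complement of the capital on the left, so that Limd2 has cytosine on the plus strand and adenine on the minus strand.
Hspd1 promoter, chr1:55144563-55144624: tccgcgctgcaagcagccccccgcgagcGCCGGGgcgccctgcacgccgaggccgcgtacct
Limd2 promoter, chr11:106021742-106021803: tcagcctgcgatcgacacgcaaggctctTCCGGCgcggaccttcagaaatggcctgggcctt
Ndrg4 promoter, chr8:98227154-98227215: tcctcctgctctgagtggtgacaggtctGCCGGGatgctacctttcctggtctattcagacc
Pcx coding exon, chr19:4602749-4602810: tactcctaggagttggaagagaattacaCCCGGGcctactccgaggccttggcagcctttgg
Zfp777 coding exon, chr6:47974788-47974849: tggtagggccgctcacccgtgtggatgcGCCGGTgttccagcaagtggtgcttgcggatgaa
Intergenic, chr11:94994767-94994828: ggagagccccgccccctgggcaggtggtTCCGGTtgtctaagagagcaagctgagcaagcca
Intergenic repeat, first unit, chr9:13339196-13339257: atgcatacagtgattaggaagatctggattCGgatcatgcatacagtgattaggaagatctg
Intergenic repeat, second unit, chr9:13339232-13339293: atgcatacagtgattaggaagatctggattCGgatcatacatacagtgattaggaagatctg
The first 3 had strand differences of the same sign in every covered mouse, by which Hspd1 and Limd2 were in part picked. Pcx and Zfp777 differed past 50 points only in the DXB mice. The chr11 site differed past 50 points only in the B6 male, and the repeat units gave the greatest mean difference and the only strain pair outside DXB.

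Averaged over all levels, neither strand was called higher. The mean difference over dyads lay between -0.17 points in the BXD male and 0.36 points in the DBA male. Over the 8 mice it was -0.0022 ± 0.17 points (SD, n = 8), which did not pass a two-sided exact permutation test (p = 0.984). Differences of opposite sign cancel in this mean, so it says nothing of the symmetry of single dyads. At the 3247 dyads with a mean level of 20 to 80% it was -0.22 ± 0.18 points (SD, n = 8), which did pass (exact permutation p = 0.0156). Levels of the strands followed each other closely over dyads, with r of 0.888 in the B6 male (6510 dyads), 0.917 in the DBA male (1649 dyads) and 0.966 to 0.979 in the other mice (7975 to 12363 dyads). Points in such a correlation share the library, and most dyads sit below 20% or above 80%.

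Single dyads differed more than counting allows. At MspI dyads the root mean square difference was 9.92 points in the B6 female, where counting error alone would give 5.45, and 8.28 points in the BXD male, where it would give 4.59. It was 16.9 points in the B6 male and 16.05 in the DBA male, against 7.32 and 7.54 from counting, which was 4.59 to 6.68 in the other 6 mice. The remaining 4 mice lay at 9.22 to 9.48 points. Both 76-base libraries thus stood above all other libraries, which do not overlap with them. Once the part from counting was taken away, 15.2 points remained in the B6 male, 14.2 in the DBA male and 6.58 to 8.28 in the rest.

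**Figure D1:**
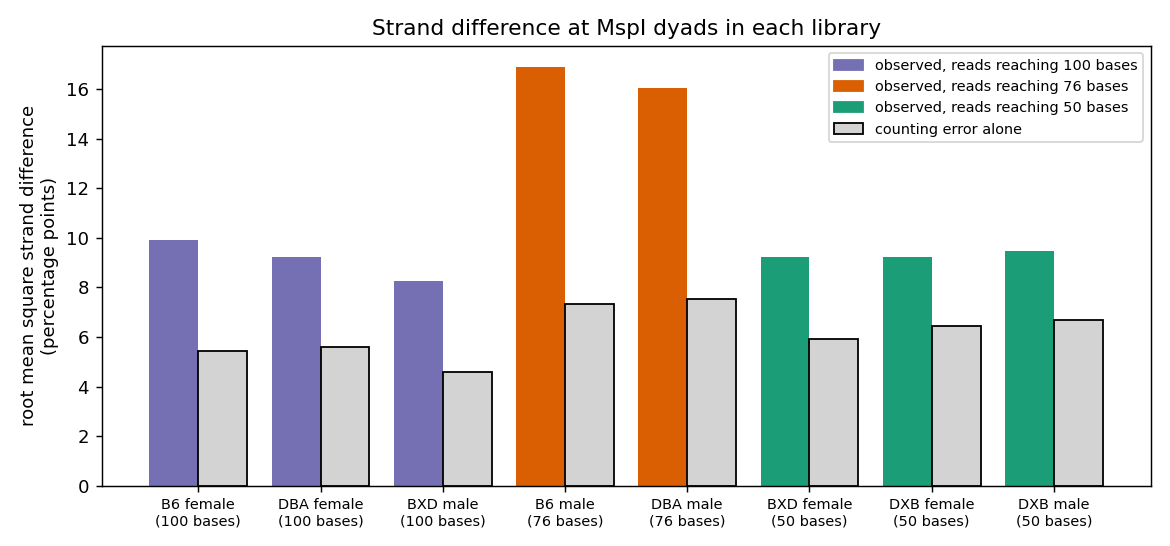
Root mean square strand difference at MspI dyads (percentage points) in each library, ordered by read reach, coloured bars for the observed value and grey bars for the value that counting error alone gives. The B6 male (16.9) and DBA male (16.05) exceed the other 6 libraries (8.28 to 9.92), and their grey bars (7.32 and 7.54) are also the highest, against 4.59 to 6.68 in the rest.

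The absolute difference was greatest where the level was intermediate. The level here is the mean of both strands, which caps the difference at dyads near 0% or 100%. The contrast between the ranges of level is therefore fixed in part by arithmetic. Averaged over the 8 mice it was 2.52 points at dyads with a level under 5%, 7.68 points at 5 to 20%, 13.6 points at 40 to 60%, and 2.83 points at 95% or more.

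Very few dyads stood past 50 points. Of 71749 values (1 dyad in 1 mouse), 160 were past 50 points, or 0.223%. In each of them the level of each strand lay outside the exact 95% binomial interval of the other. With the minimum of reads set here, no such interval reaches 50 points from its level. The interval rule could therefore remove none of these values and is no further test of them. The share past 50 points was 0.968% in the B6 male (63 of 6510 dyads) and 0.606% in the DBA male (10 of 1649). For the B6 female it was 0.129%, for the DBA female 0.125%, 0.106% in the BXD female, 0.129% in the BXD male, 0.163% in the DXB female and 0.166% in the DXB male. At least 1 mouse was past 50 points at 122 dyads, or 0.934% of all.

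No dyad was past 50 points in all of its covered mice. The dyad that came nearest lies in Hspd1, which encodes a mitochondrial chaperonin, at chr1:55144593-55144594 in a promoter with 25 CGs within 100 bases on either side. Its plus strand was at 8.1% in the B6 female, 14.6% in the B6 male, 2.1% in the DBA female, 5.7% in the BXD female, 5.6% in the BXD male and 8.7% in the DXB male. The minus strand in the same mice was at 52.2%, 76.9%, 56.5%, 61.0%, 67.6% and 63.9%. The strands did not overlap in any mouse, and 5 of the 6 covered mice were past 50 points, with the B6 female at -44.1. The mean difference was -55.6 ± 6.63 points (SD, n = 6; limma, adjusted p = 0.00108). The minus strand had 26 reads in the B6 male and 23 in the DBA female. The DBA male, not counted, was at 30.8% of 13 reads (plus) and 86.6% of 67 reads (minus). The DXB female, also not counted, was at 27.3% of 11 reads and 64.1% of 39 reads. Without the B6 female, Hspd1 and the first repeat unit on chromosome 9 were past 50 points in all covered mice.

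Hspd1 and the next nearest dyads were picked by their smallest absolute difference among dyads with the same sign in every covered mouse. Their shared sign and large means follow from that choice, and their limma p-values come from the same values. The next nearest dyads had smallest absolute differences of 41.8 and 40.2 points. The first lies at chr11:106021772-106021773 in the promoter of Limd2, which encodes a LIM domain protein. Its plus strand was at 18.2% (B6 female), then 6.0% in the DBA female, 7.3% in the BXD male, 15.4% in the DXB female and 5.3% in the DXB male, and its minus strand at 60%, 81.0%, 57.6%, 65.2% and 58.3%. All 5 counted mice had the minus strand higher, by 54.0 ± 12.5 points on average (SD, n = 5; limma, adjusted p = 0.0071). The minus strand had 25, 21, 23 and 24 reads in the B6 female, DBA female, DXB female and DXB male, near the minimum. Of the mice not counted, the B6 male was at 33.3% of 12 reads (plus) and 30% of 10 reads (minus). The BXD female, also not counted, was at 27.4% of 95 reads and 70.6% of 17 reads. The other lies in an intron of Onecut2, a liver-enriched transcription factor, with a mean difference of -48.9 ± 8.24 points in 4 mice and an adjusted p of 0.00835 by limma.

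Over mice, limma called 140 of the 13064 dyads (1.07%) with an adjusted p under 0.05 and a mean difference past 20 points. The plus strand was higher at 74 and the minus strand at 66, and every covered mouse had the same sign at all 140. The calls were made from these same values and favour a shared sign, so it is no further result. Of all 253 dyads with a mean difference past 20 points, 218 had the same sign in every covered mouse. An adjusted p under 0.05 without regard to size was found at 650 dyads. Of the called dyads 139 were MspI sites, as were 12625 of all 13064 dyads. The called dyads lay at promoters (47), between genes (39), in introns (36), in coding exons (13) and in other exons (5), where the 13064 dyads are 27.4%, 31.1%, 30.3%, 7.39% and 3.80%. Called dyads had a median level of 58.9% and 65.7% of them lay between 20% and 80%, against 24.9% of all dyads. A mean difference past 20 points cannot arise at levels close to 0% or 100%, so the limit itself fixes part of this contrast. Without the B6 male 143 dyads were called, and without both 76-base libraries 144, of which 116 were among the 140. Without the BXD female, DXB female or DXB male the counts were 85, 92 and 86, of 10546, 11251 and 11117 dyads tested.

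The second greatest mean difference among called dyads was in the promoter of Ndrg4, a gene best known from brain and heart, at chr8:98227184-98227185. The plus strand was at 4.4% in the B6 female, 6.6% in the BXD female, 4.8% in the DXB female and 3.8% in the DXB male. The minus strand was at 39.5%, 84.8%, 81.1% and 75%. Both strands were thus low to intermediate in the 100-base library and far apart in the 50-base libraries. The mean difference was -65.2 ± 20.3 points (SD, n = 4; limma, adjusted p = 0.0265). In the BXD male the minus strand was at 20% of 60 reads, but the plus strand had 5 reads and was not counted.

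The greatest mean difference among called dyads, 70.4 ± 25.2 points in 5 mice (limma, adjusted p = 0.0208), was at chr9:13339226-13339227 outside MspI sites. The stretch shown above as the first unit is followed by a near copy, whose CG at chr9:13339262-13339263 is also among the dyads. At the first unit the plus strand was at 91.2%, 90.9%, 94.7%, 94.0% and 91.8% in the B6 female, B6 male, DBA female, DBA male and BXD male, and the minus strand at 61.2%, 22.2%, 0%, 6.2% and 20.8%. At the second unit the order of the strands was turned in the B6 mice, where the minus strand was the higher. The same was true of the BXD male, at 60.4% on the plus strand and 95.6% on the minus strand. In the B6 mice the plus strand was at 39.1% in the B6 female and 29.5% in the B6 male with the minus strand at 89.4% and 88.9%, while the DBA female had 89.6% and 84.1% and the DBA male 92.4% and 96.9%. This was the only dyad past 50 points in both B6 mice and in no other mouse, and without the B6 male it rests on the B6 female alone, at -50.3 points. The strands of the second unit were thus far apart in both B6 mice and less so in the BXD male, and close in both DBA mice, whereas those of the first unit were farthest apart in the DBA mice. Reads that reach 50 bases covered 1 strand of each unit only, and the part of misplaced reads between the copies was not tested.

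Past 50 points in both mice of 1 strain and in no covered mouse of another were 7 dyads, 6 in DXB, 1 in B6 and none in DBA or BXD. Both mice of the strain were covered at 10485 dyads in DXB, 6070 in B6, 7714 in BXD and 563 in DBA, so that a dyad of this kind had little chance to be seen in DBA. The DXB dyad that is widest by the mean of both DXB mice lies in a coding exon of Pcx at chr19:4602779-4602780. Pcx encodes pyruvate carboxylase, the enzyme that opens gluconeogenesis. Its minus strand was at 7.1% in the DXB female and 4.4% in the DXB male, where the plus strand was at 75% and 87.0%. In the B6 female the strands were at 69.2% (plus) and 75% (minus) and in the BXD male at 84.7% and 76.6%. The strands were thus far apart in both DXB mice and close in both other counted mice. In the BXD female they were at 76.9% of 13 reads (plus) and 59.1% of 22 reads (minus), and this mouse was not counted.

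At chr6:47974818-47974819, in a coding exon of the zinc finger gene Zfp777, the minus strand was at 100% in all 4 covered mice. The plus strand was at 27.3% of 22 reads in the DXB female, 28% of 25 reads in the DXB male, 70% of 20 reads in the BXD female and 100% of 45 reads in the BXD male. The BXD female lay between the DXB mice and the BXD male.

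The other 4 DXB dyads lie in introns of Ncoa3 (a coactivator of nuclear receptors), Csmd2 and Col4a1 (a chain of basement membrane collagen) and near C630004L07Rik. DXB differences were 51.5 and 71.5 points at Ncoa3, 50.1 and 68.9 at Csmd2, -55.9 and -54.7 near C630004L07Rik, and -53.9 and -50.8 at Col4a1. In the BXD female, the other 50-base library, they were 33.3, 42.4, -35.5 and -28.0 points. In the B6 female, a 100-base library, they were -4.83, -0.29, 0.62 and -41.7 points. The BXD female was on the DXB side at all 4, and the B6 female only at Col4a1. The DBA female was at -10.2 points at Ncoa3 and -32.5 at Col4a1. At Col4a1 every covered mouse thus had the same sign, and limma called it over mice (mean -41.4 points, adjusted p = 0.0107). Its place among the DXB dyads rests on the limit of 50 points alone. In the BXD male, a 100-base library, they were -2.72 points at Csmd2 and 9.66 near C630004L07Rik. It had too few reads at Ncoa3 and Col4a1. DXB was the only strain in which both libraries reached 50 bases, so within DXB strain and read reach cannot be told apart. The BXD female and BXD male differ in both reach and sex, and the part of read reach was not tested.

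**Figure D2:**
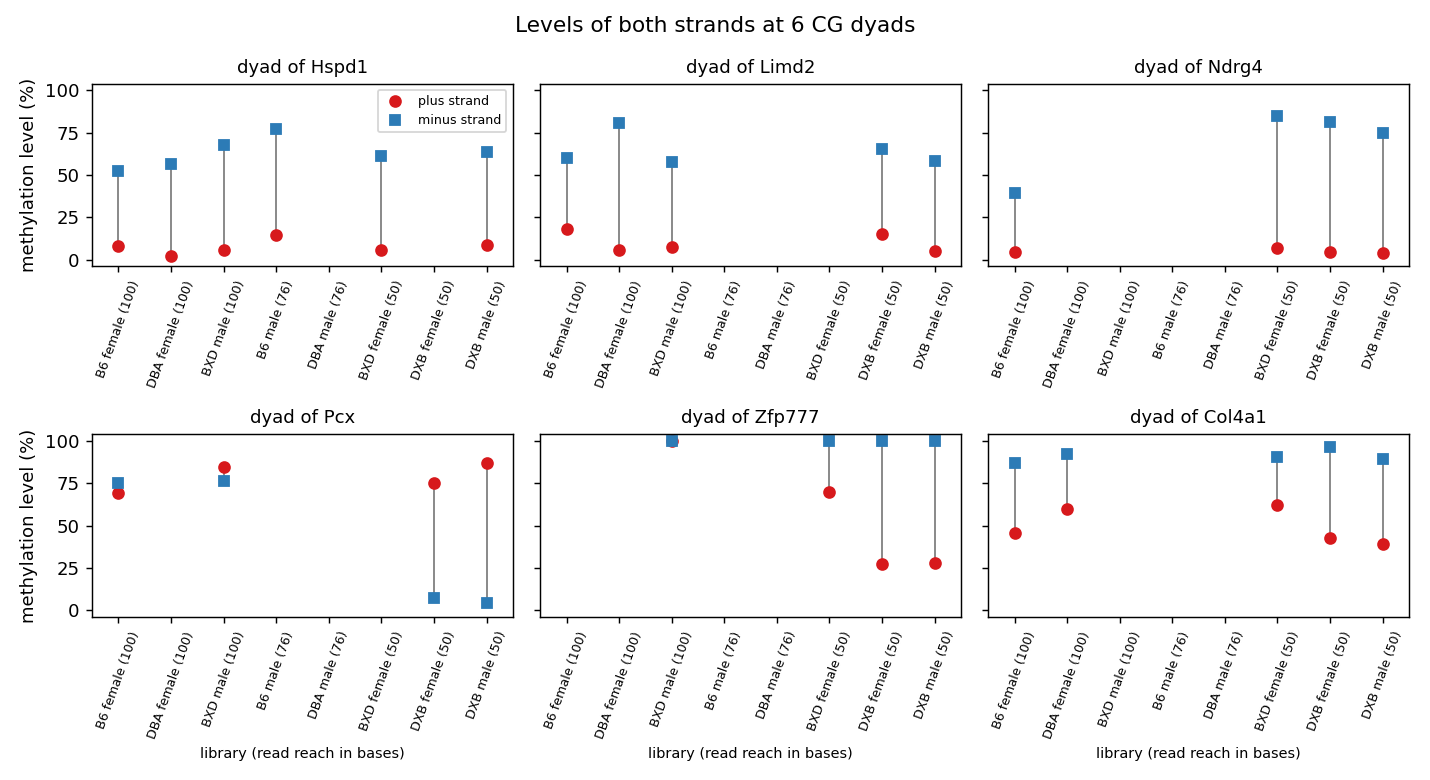
Methylation level (%) of the plus strand (red circles) and minus strand (blue squares) in each library with at least 20 reads on both strands, ordered by read reach, at 6 dyads. The minus strand is above the plus strand in all covered libraries at Hspd1, Limd2, Ndrg4 and Col4a1, whereas at Pcx the strands part only in both DXB libraries, and at Zfp777 the BXD male alone has both strands at 100%.

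When libraries were grouped by reach, 6 dyads were past 50 points in every covered 50-base library (2 or more) and in no other, of 11892 dyads at which this could be seen. These include Ndrg4 and Pcx, and the 6 were picked after their values were seen. At Pcx only the DXB libraries were counted, and the BXD female, with too few reads, did not have their low minus strand. At chr5:111062851-111062852, between genes, the plus strand was at 31.9% of 364 reads, 24.9% of 346 reads and 25.7% of 307 reads in the BXD female, DXB female and DXB male, but at 92.0% of 25 reads in the B6 male. The minus strand was at 90.9% or more in these 4 mice. The low strand also had more reads in the 50-base libraries, and most of those that carry a SNP had the B6 base (301 against 63 in the BXD female). At chr11:40376721-40376722 the minus strand was at 27.6%, 6.6% and 14.4% in the same 3 libraries and at 80%, 86.8% and 82.6% in the B6 female, B6 male and DBA female. The plus strand was at 81.6% or more in all 6. At chr7:77526239-77526240 the plus strand was at 13.3%, 32.6% and 23.7% in the 3 libraries and 97.3% in the B6 female, with the minus strand at 91.3% or more in all 4. At chr8:64620325-64620326 the plus strand was at 28.9%, 17.5% and 38.1% in them and at 77.1%, 74.1% and 62.5% in the BXD male, B6 female and DBA female, with the minus strand at 86.6% or more. At these 4 sites 1 strand was alike in all libraries and the other was low in the 50-base ones, whereas at Ndrg4 it was the strand that differed that was high in them. Neither read depth nor the placing of short reads was tested as a source. For 100-base libraries 2 dyads of 11264 had this pattern, in Pdp2 and Cyp2d22, and for 76-base libraries none of 1107.

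Past 50 points in 1 mouse and in no other covered mouse were 96 dyads, and 54 of them were past it in the B6 male, which covered 6510. The B6 female had 11 of 12363 covered dyads, the DBA male 9 of 1649, the BXD female 6 of 12246 and the DXB female 6 of 11031. The BXD male had 4 of 8499, the DXB male 4 of 11476 and the DBA female 2 of 7975. Without both 76-base libraries the count was 32 of 11650 dyads. The greatest single difference of this kind was at chr11:94994797-94994798, where the B6 male had 13.9% of 36 reads on the plus strand and 100% of 21 reads on the minus strand. In the other 6 covered mice the difference had the same sign but only -8.99 to -34.9 points. At chr1:122979304-122979305 the B6 male had 6.9% on the plus strand and 76.5% on the minus strand, and the other 6 mice differed by -12.6 to 8.09 points. The third, in the promoter of Abhd16b at chr2:181228353-181228354, had 31.8% of 22 reads against 100% of 40 reads in the B6 male and 65.9% to 95% against 95.9% to 100% in 4 other mice. The plus-strand read of all 3 has a cytosine or thymine as its flanking base.

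The last of the 4 belongs to the imprinted locus of Zrsr1 and Commd1, where a promoter inside Commd1 is methylated on the maternal chromosome. At chr11:22872992-22872993 the DBA male had 16.2% of 68 reads on the plus strand and 81.8% of 352 reads on the minus strand. The plus strand of the other 6 covered mice was at 24.6% to 52.4% and the minus strand at 40.6% to 73.2%, with differences of -23.9 to 3.47 points. The DBA male thus lay outside the range of the others on both strands. Unlike the dyads of the B6 male above, this dyad has flanking bases of the same kind, thymine on the plus strand and cytosine on the minus strand.

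The strand difference in 4 libraries followed the flanking base of the read. This relation was found after the data were examined. At 5862 MspI dyads 1 strand has a cytosine or thymine there and the other an adenine or guanine. In the B6 male the strand of the first kind was at 40.1% and its partner at 56.5% on average over 2542 dyads, a difference of -16.4 points, and it was the lower strand at 87.1% of these dyads. In the DBA male the levels were 29.5% and 43.4% over 410 dyads, a difference of -13.9 points. The difference was -2.28 points in the B6 female and -1.92 points in the DBA female. It was 0.34 points in the BXD female, 0.24 in the BXD male, 0.24 in the DXB female and -0.12 in the DXB male. All 4 parents therefore had the strand with cytosine or thymine lower, and the 4 F1 lay within 0.35 points of 0 over all levels. The F1 means average values of opposite sign. At dyads of 20 to 80% they were 1.34 points in the BXD female, 1.52 in the BXD male, 1.31 in the DXB female and 0.41 in the DXB male, and at dyads under 20% -0.50 to -0.93 points. The parents were below 0 at both, with -3.91 to -23.7 and -1.84 to -13.8 points.

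Parents and F1 did not overlap, with means of -8.64 ± 7.62 and 0.17 ± 0.20 points (SD, n = 4 each). The difference of -8.81 points had a two-sided exact permutation p of 0.02857, the smallest that 4 against 4 mice can give, and 0.0714 after Benjamini-Hochberg adjustment over 10 tests, so that it did not pass after adjustment. Without the B6 male it was -6.23 points, with an exact permutation p of 0.0571, the smallest that 3 against 4 mice can give. Over all 8 mice together the mean of -4.23 ± 6.86 points did not pass the exact permutation test (p = 0.117). Among the 3 libraries of 100 bases the values were -2.28 and -1.92 points in the B6 female and DBA female and 0.24 in the BXD male. The part of read reach was not tested. Whether the parents were prepared or sequenced apart from the F1 is not given in the sources used here, so parentage and library preparation cannot be told apart.

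**Figure D3:**
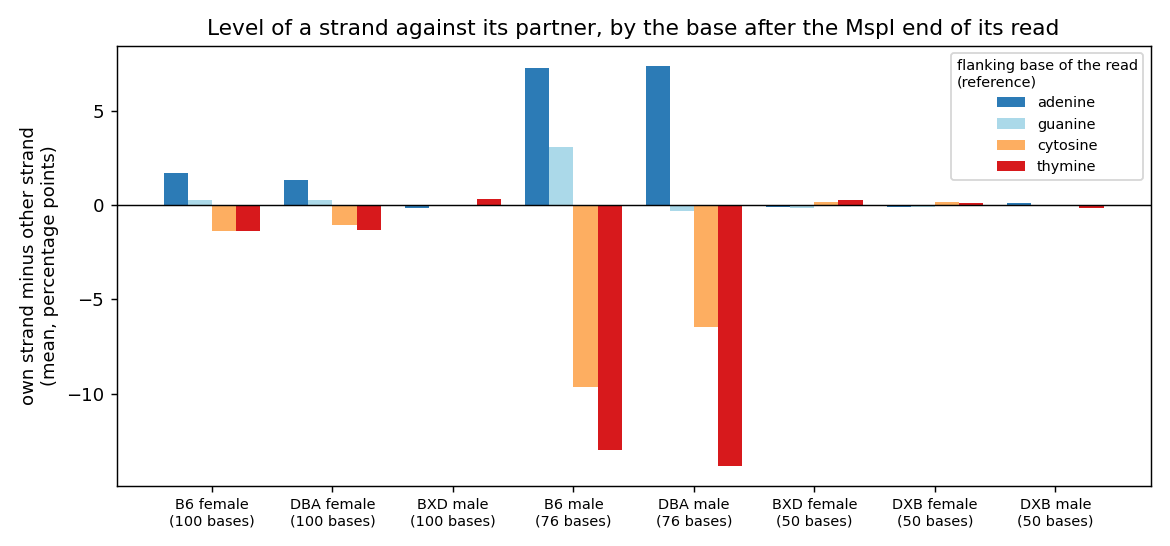
Mean level of a strand minus that of its partner at MspI dyads (percentage points), by the flanking base of the strand's own read in the reference, for each library ordered by read reach. In the B6 male and DBA male thymine gives -12.98 and -13.8 and adenine 7.28 and 7.37, in the B6 female and DBA female the same order is within 1.7 points of 0, and in the 4 F1 libraries all bars are within 0.35 points of 0.

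Single bases kept this order. In the B6 male the mean of a strand minus its partner was -12.98 points when its flanking base was thymine, -9.67 points for cytosine, 3.09 for guanine and 7.28 for adenine. In the DBA male these were -13.8, -6.44, -0.32 and 7.37 points. Cytosine outside CG is read as thymine after bisulfite treatment, and cytosine in CG only where it is unmethylated. At dyads of 20 to 80% in the B6 male the mean was -22.0 points for thymine (614 strands), -18.6 for cytosine not followed by guanine (727 strands) and 0.90 for cytosine followed by guanine (80 strands). In the DBA male these were -21.0, -14.9 and 1.95 points, the last over 28 strands. At the same levels in the BXD female, an F1, they were 0.93, 0.05 and 8.29 points. At dyads under 20% cytosine followed by guanine was at -6.89 points (186 strands) and other cytosine at -5.99 (675 strands) in the B6 male, against -1.24 (45 strands) and -5.63 (136 strands) in the DBA male. At dyads from 80% up the B6 male had 3.43 (79 strands) and -5.81 (421 strands), and the DBA male 2.53 (17 strands) and -3.67 (30 strands). The gap between them was thus seen at all 3 ranges of level in the DBA male, over few strands, and at intermediate and high levels in the B6 male. It was not particular to these mice. At 20 to 80% and from 80% up, cytosine followed by guanine lay above other cytosine in every library, F1 included. At 20 to 80% these were 2.91 and -2.91 points in the B6 female and 5.30 and -2.70 in the DBA female. They were 4.63 and 0.40 in the BXD male, 7.47 and 0.69 in the DXB female, and 5.06 and 0.28 in the DXB male. Under 20% only the B6 male had the opposite order.

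The relation was seen both at promoters and between genes in the parents. In the B6 male the strand with cytosine or thymine minus its partner was -16.1 points at promoters and -16.7 between genes, and in the B6 female these were -2.18 and -2.29. They were -13.5 and -16.8 points in the DBA male and -2.09 and -1.68 in the DBA female. Promoters and intergenic dyads were not tested against each other here. Of the 63 dyads past 50 points in the B6 male, 52 had flanking bases of different kinds, and the strand with cytosine or thymine was lower at 51 of them. Of all 6510 dyads in this mouse 2542 had different kinds, and that strand was lower at 87.1% of these. In the DBA male it was lower at 5 of 5 such dyads, in the B6 female at 4 of 7 and in the DBA female at 5 of 7. Over all their dyads of different kinds it was lower at 83.2%, 58.6% and 58.3%, and counts this small cannot be set apart from those shares. In the 4 F1 libraries it was lower at 1 of 7, 3 of 6, 3 of 8 and 3 of 9, and at 48.3% to 50.4% of all their dyads of different kinds.

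Where both reads have the same kind of flanking base the 76-base libraries came nearer to the others. The root mean square difference beyond counting was 9.79 points in the B6 male at 3633 such dyads and 20.7 points at the 2542 with different kinds. It was 10.9 and 18.96 points in the DBA male, and 6.34 to 8.51 points in the other 6 mice for either kind. Among the 140 dyads called over mice, 61 had different kinds, or 43.9% of the called MspI dyads against 46.4% of all MspI dyads. The cytosine or thymine strand was lower at 62.3% of the 61, as at 63.0% of all 5862 such dyads. With dyads of different kinds left out, limma called 84 of 7202 dyads.

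On average the strand read from the longer fragment was the lower in all 8 mice. Where the right fragment was at least 30 bases shorter than the left, the plus strand was higher on average, by 0.98 points in the DXB female to 2.20 points in the DBA male. Where it was at least 30 bases longer, the means were -1.18 points in the DXB female to -2.14 points in the B6 female. The first minus the second was 3.24 ± 0.75 points (SD, n = 8) and above 0 in 8 of 8 mice, at 2.16 to 4.25 points (two-sided exact permutation test, p = 0.0078, adjusted p = 0.026). This version was chosen after the data were examined, since no fragment was as short as the 100 bases planned as the limit. With 150 bases as the limit the difference was 3.86 ± 2.95 points (SD, n = 8; exact permutation p = 0.0078, adjusted p = 0.026), from 0.51 points in the DXB female to 9.61 in the B6 male. At dyads with at least 50 reads per strand it was 2.34 points in 7 mice (exact permutation p = 0.203).

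At dyads whose reads have the same kind of flanking base, the mean of the 30-base version was 3.66 ± 1.19 points (SD, n = 8; exact permutation p = 0.0078), with 2.51 to 5.73 points in the parents and 2.37 to 3.96 in the F1. The spread between dyads was far wider than this shift, and r between the difference and the difference in length was -0.095 to -0.173 over 1213 to 12246 dyads, which share the library. Of the called dyads 65.5% had the lower strand on the longer fragment (91 of 139), and of all 12536 MspI dyads with fragments of unequal length 57.1%.

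**Figure D4:**
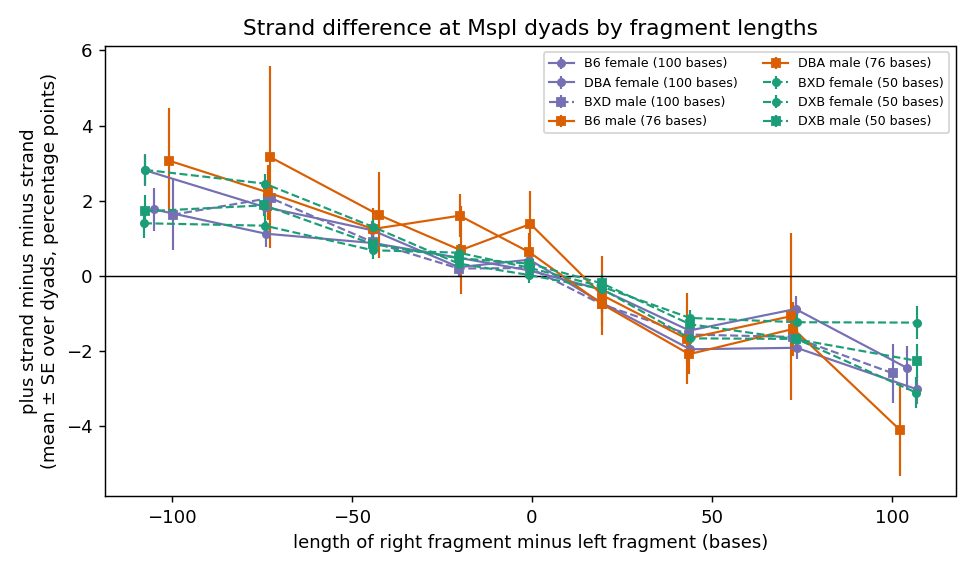
Mean plus-strand minus minus-strand level at MspI dyads (percentage points, ± SE over dyads) against the length of the right fragment minus the left (bases), for each library in bins of at least 20 dyads, with colour for read reach, circles for females, squares for males, solid lines for parents and broken lines for F1. All 8 lines pass from above 0 at the left to below 0 at the right, and error bars are widest in the DBA male, which covers 1213 MspI dyads.

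Read depth on the strands moved weakly with the difference. Over MspI dyads r between the difference and the log2 ratio of reads on the strands was 0.250 in the B6 male (6175 dyads) and 0.275 in the DBA male (1213 dyads), and -0.077 to 0.029 in the other 6. With flanking bases of the same kind it was 0.081 and 0.189 in these libraries, -0.117 in the DBA female, -0.073 in the B6 female and -0.0091 to 0.036 in the F1. The strand with more reads thus tended weakly to be the more methylated one in the male parents and the less methylated one in the female parents, and the part of depth in the result was not tested.

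Strand differences were shared most within the 76-base and 100-base libraries. Over the dyads that a pair of libraries shares, r of the differences was 0.708 between the B6 male and DBA male (1107 dyads), 0.559 to 0.561 among the 3 libraries of 100 bases and 0.450 to 0.458 among the 3 of 50 bases. In the 21 pairs of unequal reach it was 0.205 to 0.458. Of the 4 pairs of 1 strain, r was 0.369 to 0.458, and the 1 pair of these with equal reach was DXB at 0.450. Where flanking bases are of the same kind, r was 0.441 to 0.585 in the 7 pairs of equal reach and 0.260 to 0.438 in the 21 others. There the B6 male and DBA male were at 0.566 (512 dyads), below the 0.577 to 0.585 among the 100-base libraries. In the B6 male 16.1% of the calls that carry a strain SNP were DBA, and the part of this in r was not tested. All points rest on the same fragments and reference in both libraries, and r is a description.

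**Figure D5:**
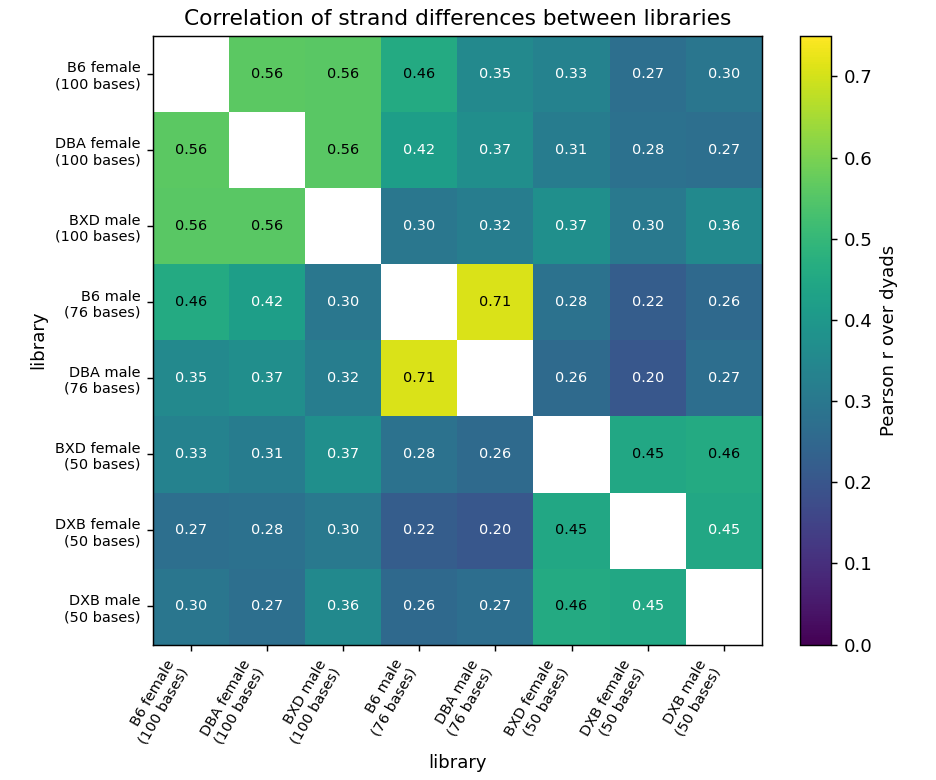
Pearson r over shared dyads of the plus-strand minus minus-strand difference for each pair of libraries, ordered by read reach, with the value in each cell. Pairs of equal reach lie at 0.56 for 100 bases, 0.71 for 76 bases and 0.45 to 0.46 for 50 bases, and the remaining pairs lie between 0.20 and 0.46, the highest of these being the B6 female with the B6 male.

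Neighbouring CGs in the same reads moved with the dyad to a small degree. The difference in level of other CGs within 45 bases on the reads of each strand had an r of 0.134 to 0.193 with the difference of the dyad, over 564 to 4059 dyads with at least 40 reads of such CGs on each strand. At dyads past 30 points with neighbours, the neighbours had the same sign at 80 of 139 in the B6 male, 34 of 59 in the B6 female, 19 of 33 in the DBA male, 19 of 27 in the DBA female, 27 of 37 in the BXD female, 14 of 23 in the BXD male, 18 of 21 in the DXB female and 19 of 35 in the DXB male.

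Dyads outside MspI sites differed less in every mouse that covered them. Their absolute difference was 2.99 points in the B6 female, 3.32 in the B6 male, 3.67 in the DBA female, 2.46 in the DBA male and 2.31 in the BXD male, whereas MspI dyads were at 6.88, 12.4, 6.24, 12.02 and 5.50 points. The mean of the difference was 5.66 ± 3.38 points (SD, n = 5) and above 0 in 5 of 5 mice, with an exact permutation p of 0.0625, the smallest that 5 mice can give. Leaving out 1 mouse and choosing the dyads anew gave 1.74 points without the DBA male (exact permutation p = 0.625), 3.21 without the B6 female, 3.67 without the BXD male, 4.42 without the B6 male and 6.29 without the DBA female. Their mean level was 11.8% to 12.6%, where differences are small, while MspI dyads had 46.4% to 61.6% in these mice. At dyads of 20 to 80% the difference between the kinds was 2.39 points in 4 mice (exact permutation p = 0.5).

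Between promoter dyads, within 1 kb of a protein-coding start, and intergenic dyads the absolute difference over all levels differed by -0.23 ± 0.79 points (promoter minus intergenic; SD, n = 8), which did not pass the exact permutation test (p = 0.453). Without the B6 male it was -0.025 points (exact permutation p = 0.922), and without other mice -0.47 to 0.22, with both signs. Promoter dyads had a mean level of 26.7% and intergenic dyads of 69.96%. Among dyads of 20 to 80% promoter dyads had the greater absolute difference in all 8 mice, by 1.04 points (exact permutation p = 0.0078, not adjusted).

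At the 300 dyads covered in all 8 mice, the absolute difference was 8.37 ± 2.73 points in the parents and 5.49 ± 0.92 in the F1 (SD, n = 4 each). The difference of 2.88 points did not pass the exact permutation test (p = 0.114), and the groups overlapped, as the B6 female was at 5.73 points and the DXB female at 6.23. The B6 male at 10.4 and the DBA male at 11.1 points lay far above all F1, and the DBA female was at 6.32. Without the B6 male the difference was 2.17 points (exact permutation p = 0.229), and with flanking bases of the same kind it was 1.09 points (214 dyads, exact permutation p = 0.314). Females had 6.11 ± 0.26 and males 7.75 ± 3.46 points (SD, n = 4 each; exact permutation p = 0.429), or -1.65 ± 3.54 points as pairs within a strain, with an exact permutation p of 0.5 where 4 pairs cannot go below 0.125, and the males held both the lowest value, 4.24 in the BXD male, and the highest. Without the B6 male females minus males was -0.79 points (exact permutation p = 0.857), and without the BXD male -2.82 (exact permutation p = 0.286).

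Among known imprinted genes, where one parental chromosome is methylated, 15 of the 39 listed had 32 dyads within 5 kb of a start or in the gene. None was called by limma, against 1.07% of all dyads, and 1, that of Zrsr1 and Commd1, was past 50 points in a mouse, against 0.934% of all, and with 32 dyads neither count sets the list apart. The absolute value of the mean difference had a median of 4.07 points, against 3.20 over all dyads. Levels of 20 to 80%, where absolute differences are greater at all loci, were found at 15 of the 32, against 3247 of all 13064. Near Dlk1, a growth regulator expressed from the paternal chromosome, 1 dyad had a mean difference of -27.3 points. At Snrpn, Mest and Grb10, with 1 dyad each, absolute differences reached 9.22, 7.26 and 19.2 points at most.

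Genes of methylation maintenance and turnover held 12 dyads in 6 of 11 genes, with none called, where 1.07% of all dyads were, and a median of 3.11 points. With 12 dyads this count says nothing about the list. The dyad of Dnmt1 reached 29.8 points in 1 mouse, and the greatest difference at the 2 dyads of Uhrf1, which brings Dnmt1 to hemimethylated DNA, was 28.6. At Tet1, an enzyme that oxidises methylcytosine, no difference was over 8.39 points. Of 15 hepatocyte genes 3 had a dyad each, Apob (a lipoprotein), Foxa2 (a liver transcription factor) and G6pc (glucose-6-phosphatase), and none was called, which at 3 dyads says nothing of the list. Their mean differences were -17.6, 3.62 and 1.71 points.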

How the data were processed

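RRBS was made from liver DNA of 8 mice. The authors cut DNA with MspI, aligned reads to mm9 with BS Seeker, kept unique alignments and sorted reads by SNP. They deposited, for each cytosine, raw counts of methylated and unmethylated reads. How reads were trimmed, and whether duplicates were removed, is not given in the sources used here. Their 4 tables of comparisons, with the authors' own differences and p-values, were not used.

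Counts of all read classes were summed, and levels taken as percentages, at dyads with at least 20 reads on both strands in at least 4 mice. Median depth on the plus strand was 57 to 129 reads per mouse. Intervals (exact, 95%) cover counting error only. Positions are those of NCBIM37, counted from 1, with GENCODE genes. The members and lists were chosen with earlier results of these data known. Differences over mice were fitted with limma 3.58.1 in R 4.3.3 (intercept model, Benjamini-Hochberg). Group values were tested by exact permutation over mice, two-sided, with scipy 1.17.1. The fit was also run on simulated counts that left out the spread between mice, which says nothing of error control in these data. Each mouse is 1 animal, so p-values measure the spread between these mice. The limit of 100 bases for short fragments left no dyad, and 150, listed beforehand as another limit, was used in its place.

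Dyads were named by a rule: up to 10 past 50 points in all covered mice, 6 in 1 strain only, 4 in 1 mouse only and 3 on either side of the limit. Those outside the limit were taken only from dyads with the same sign in every covered mouse. All 7 of 1 strain only are given, and the dyads grouped by read reach and the chromosome 9 repeat were chosen after their values were seen.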

Additional observations from a re-analysis of the deposited data

Results flagged for a closer look

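The flanking base of the read (the base after CGG) went with a lower level of the strand with cytosine or thymine in the 4 parents, while the 4 F1 lay within 0.35 points of 0 over all levels, with 0.41 to 1.52 points at dyads of 20 to 80% and -0.50 to -0.93 under 20%. The groups differed by -8.81 points (exact permutation p = 0.02857, or 0.0714 after adjustment over 10 tests, which does not pass). The relation was found after the data were examined, and without the B6 male the difference was -6.23 points (exact permutation p = 0.0571). The 2 males among the parents were at -16.4 and -13.9 points and the 2 females at -2.28 and -1.92.

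The mean strand difference of the DBA male, 0.36 points, lay apart from the other 7 mice by Dixon's criterion, which chance meets in about 1 of 20 groups. This mouse covered 1649 dyads, the fewest of all.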

How the results depend on the processing

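Of 128 values under alternative settings, 83 kept their direction and side of the threshold (counts: stayed within 1.5 times). With at least 10 reads, 12 dyads were past 50 points in 1 strain only, 365 in 1 mouse only, and 514 values were called in single mice. With at least 50 reads these were 1, 14 and 16, limma called 40 of 4525 dyads, the mean strand difference was 0.11 points, promoter minus intergenic dyads was 0.20 points, and the difference by fragment length was 2.34 points and no longer passed (exact permutation p = 0.203). Past 30 points, limma called 44 dyads, single mice 1374 values, and 6, 26 and 802 dyads were past the limit in all covered mice, in 1 strain only and in 1 mouse only. Past 70 points single mice had 21 values, with 3 dyads in 1 strain only and 5 in 1 mouse only. At dyads of 20 to 80% the mean strand difference was -0.22 points (exact permutation p = 0.0156, not adjusted) and promoter minus intergenic dyads turned to 1.04 points. Leaving out 1 mouse gave 85 to 157 dyads called by limma, 0 to 2 past 50 points in all covered mice, a mean strand difference of -0.053 to 0.095 points and -0.47 to 0.22 points for promoter minus intergenic dyads. By the flanking base, parents minus F1 was then -11.1 to -6.23 points, with an exact permutation p of 0.0571 in every case, the smallest that 7 mice can give. Settings added after the data were examined gave 84 dyads called with flanking bases of the same kind, 32 in 1 mouse only without both 76-base libraries, and 0.17 points by the flanking base without the parents, where the sign turned. The causes were not tested. Limits of 50, 76 and 100 bases for short fragments left no dyad. The labels give no replicate numbers, and the female and male of a strain taken as pairs left the call between the sexes as it was. With 20 reads on a strand, 1 read shifts its level by 5 points. The DBA male covers 1649 dyads, and the absolute differences of parents against F1 and of females against males rest on the 300 covered in all 8 mice.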
